A study of Homo sapiens with 3 samples.

Results

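The cells described here were the DBH-high cells of the drug-sensitive culture of Kelly, an established human neuroblastoma line. They were the 1175 cells that carried at least 5 UMIs of DBH, out of 4907 sensitive cells and of 16586 cells in the whole series. A UMI is a counted, distinct RNA molecule. That is 23.9% of the sensitive cells (22.8 to 25.2%, exact Clopper-Pearson 95% interval, counting error only). They were set against the 1263 cells of the same library with 0 UMIs of DBH, called DBH-0 cells here, and 2469 cells with 1 to 4 UMIs lay between. Every cell counted had at least 9500 UMIs, at least 500 detected genes and at most 20% of its UMIs from mitochondrially encoded genes. The cells were chosen by their DBH UMI counts alone, so the level of DBH is a description, and it was left out of every total and ratio between the 2 groups.

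The series profiled Kelly cells, which carry amplified MYCN and an activating ALK mutation, by droplet single-cell RNA sequencing in 3 states of response to the ALK kinase inhibitor TAE684. Sensitive cells were grown with the vehicle DMSO, intermediate resistant cells with 500 nM TAE684 and fully resistant cells with 1 µM TAE684, all in the same serum-containing medium. Each state had 1 library, so n = 1 and no comparison below has a replicate check, a test or a p-value. Differences are described by size, and the 95% intervals cover counting error only, not variation between cultures.

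DBH encodes dopamine β-hydroxylase, the vesicle enzyme that turns dopamine into noradrenaline. It acts after TH, tyrosine hydroxylase, which makes L-DOPA, and DDC, which turns L-DOPA into dopamine. Chromaffin cells, sympathetic neurons and most neuroblastomas of the adrenergic kind share this pathway, together with dense-core vesicles packed with chromogranins.

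The promoters of DBH, DDC and CHGA are shown because DDC and CHGA were higher in the cells chosen by DBH. No TH promoter was at hand, so none is printed for TH. The sequences are RefSeq's on GRCh38.p14, 250 bases before to 50 bases after each start. RefSeq lists a pair of starts for DDC. Capitals mark TGACG, TGACGTCA and ATTA, the last also on the other strand, where it reads TAAT. TGACGTCA is the full cAMP response element, TGACG is contained in it, and ATTA is the core that many homeodomain factors, PHOX2A among them, recognise.
DBH, chr9:133636113-133636412, plus strand: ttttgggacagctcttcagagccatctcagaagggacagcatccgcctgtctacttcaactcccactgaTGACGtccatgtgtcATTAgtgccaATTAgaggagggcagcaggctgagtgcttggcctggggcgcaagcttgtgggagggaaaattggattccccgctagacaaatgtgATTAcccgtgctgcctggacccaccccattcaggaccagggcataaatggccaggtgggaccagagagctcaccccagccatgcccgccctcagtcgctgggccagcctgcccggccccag
DDC, chr7:50565356-50565655, minus strand: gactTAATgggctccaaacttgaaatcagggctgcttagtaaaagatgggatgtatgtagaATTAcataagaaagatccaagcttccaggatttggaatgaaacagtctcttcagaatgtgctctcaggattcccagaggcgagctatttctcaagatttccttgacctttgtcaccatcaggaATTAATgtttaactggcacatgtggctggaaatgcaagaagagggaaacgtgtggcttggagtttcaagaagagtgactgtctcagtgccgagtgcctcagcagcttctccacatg
DDC, chr7:50561022-50561321, minus strand: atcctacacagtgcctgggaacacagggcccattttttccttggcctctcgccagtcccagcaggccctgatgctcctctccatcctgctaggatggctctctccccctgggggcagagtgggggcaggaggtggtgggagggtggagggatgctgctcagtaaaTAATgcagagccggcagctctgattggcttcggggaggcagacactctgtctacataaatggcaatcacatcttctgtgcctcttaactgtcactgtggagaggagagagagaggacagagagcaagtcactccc
CHGA, chr14:92922900-92923199, plus strand: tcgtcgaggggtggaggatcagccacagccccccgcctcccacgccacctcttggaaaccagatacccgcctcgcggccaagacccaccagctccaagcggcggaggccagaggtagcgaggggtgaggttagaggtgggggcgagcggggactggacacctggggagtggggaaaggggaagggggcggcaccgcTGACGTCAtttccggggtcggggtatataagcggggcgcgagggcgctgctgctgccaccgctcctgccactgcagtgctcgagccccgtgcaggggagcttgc
In the DBH window, TGACG began at -181 and ATTA at -166, -156 and -71, counted from the start. In CHGA, TGACGTCA began at -54. The upstream DDC window held ATTA at -189 and -66 and, on the other strand, at -246 and -64, and the downstream window held it on the other strand at -85. Of 35116 RefSeq promoters of the same length, 1.85% held TGACGTCA, 24.6% held TGACG and 50.2% held ATTA on either strand. A match is only a match of letters.

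DBH varied between cells of the sensitive library more than most genes of its level did. DBH stood at 154 CPM (UMIs per 1000000 UMIs of the cells, 151 to 156) in the sensitive library, 609 CPM in the intermediate resistant and 383 CPM in the fully resistant library. The median cell held 2, 9 and 5 DBH UMIs in that order, and the highest cell held 28, 103 and 59. Barcodes with under 100 UMIs, which hold mostly free RNA, had DBH at 118 CPM in the sensitive, 491 CPM in the intermediate resistant and 287 CPM in the fully resistant library. Free RNA therefore carried DBH at a level near that of the cells, and its part in the DBH counts of single cells was not tested. After each sensitive cell was thinned at random to 9500 UMIs, the variance of DBH was 1.96 times its mean. For 678 genes whose mean lay within 1.5-fold of that of DBH, the median of this ratio was 1.09, and only 9 of them exceeded DBH, among them the cell cycle genes UBE2C and TOP2A and the LIM-domain gene LMO4.

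The limit of 5 UMIs took in deep cells more readily than shallow ones. DBH-high cells had a median of 19684 UMIs (quartiles 15999.5 and 28008), against 14640 UMIs (12517 and 18305) in DBH-0 cells. They had a median of 4072 against 3471 detected genes, but 2672 against 2673 once thinned to 9500 UMIs. Mitochondrially encoded genes took a median of 5.79% of the UMIs of DBH-high cells and 5.26% of those of DBH-0 cells, and ribosomal protein genes took 37.0% and 35.6%. On thinned counts, 6.24% of the sensitive cells (306 cells) still had at least 5 DBH UMIs, with 54.1% in the intermediate and 30.8% in the fully resistant library. Conversely, 38.5% of the thinned sensitive cells, 4.34% of the intermediate resistant and 25.2% of the fully resistant cells had 0. Because of the depth gap, ratios were also computed with the DBH-0 cells weighted to the UMI totals of the DBH-high cells in 10 classes, called the depth-weighted ratio. It is printed for the leading genes and for some of the others that it moved across a limit, so where it is not printed a gene may still have crossed. How much of any further difference comes with cell size was not tested.

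**Figure D1:**
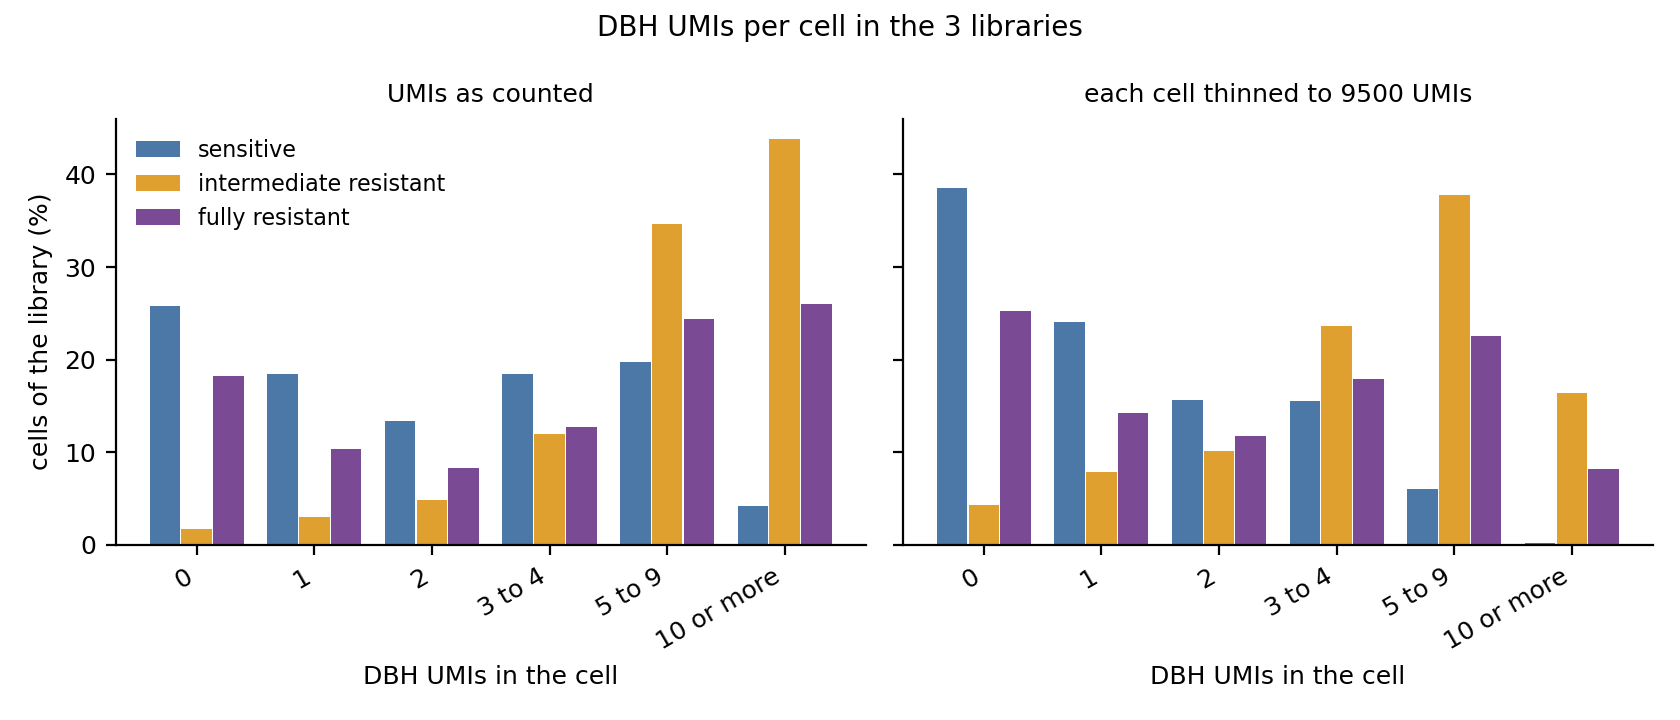
Share of each library's cells (%, y axis) by the number of DBH UMIs in the cell (x axis), as counted on the left and after thinning every cell to 9500 UMIs on the right, with 1 bar per library in the order sensitive, intermediate resistant, fully resistant. As counted, 19.7% of the sensitive cells had 5 to 9 and 4.20% had 10 or more DBH UMIs, and thinning left 6.07% and 0.163%.

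Across all genes the 2 groups were close. Of 4947 genes tested, those with at least 20 CPM in the higher group, 43 (0.869%) stood 1.5-fold or more above DBH-0 cells in the DBH-high cells, and 30 (0.606%) stood 1.5-fold or more below them. The counting interval excluded a ratio of 1 for all of these. With depth weights, 29 of the 43 and 23 of the 30 remained past 1.5-fold, and 41 and 27 remained at least 25% higher or at least 20% lower, which is the same fold in each direction and the limit used for gene lists below. The median log2 ratio over all genes tested was -0.02. The higher group was led by enzymes of catecholamine synthesis and a pair of imprinted growth-regulating genes, and the lower group by IGFBP5, VIM and CRABP1.

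TH, the label's other marker and the enzyme that starts the pathway, had the highest ratio of all 4947 genes tested. TH (ENSG00000180176) stood at 67.5 CPM in DBH-high cells and 20.2 CPM in DBH-0 cells, a ratio of 3.33 (2.99 to 3.72) and 3.12 with depth weights. TH did not choose the cells. The label was set with earlier results of these data known, so this ratio is no independent check of it. Among cells with under 15000 UMIs the TH ratio was 4.65 (224 against 662 cells), between 15000 and 20000 UMIs it was 4.22 (372 against 397) and above 20000 UMIs it was 2.68 (579 against 204). TH was therefore higher in DBH-high cells at each depth, and least so among the deepest cells. DDC (ENSG00000132437), the next enzyme, stood at 167 CPM in DBH-high and 67.4 CPM in DBH-0 cells, a ratio of 2.49 (2.34 to 2.64) and 2.39 with depth weights.

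TH and DDC were also counted cell by cell. Whether they met in the same cells more often than their separate rates give was not tested. On thinned counts a TH UMI was present in 45.5% of DBH-high and 13.4% of DBH-0 cells, and a DDC UMI in 77.4% and 43.2%. Both were present in 36.5% of DBH-high cells (33.8 to 39.3%), 20.3% of cells with 1 to 4 DBH UMIs and 7.52% of DBH-0 cells (6.13 to 9.12%). Neither was found in 13.6%, 28.0% and 51.0% of these cells in the same order. At 9500 UMIs a cell without a UMI may still hold the RNA, and a cell with a UMI may have taken it from free RNA.

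The other measured steps of the pathway differed less. Of the 5 measured genes of catecholamine synthesis other than DBH, TH and DDC were at least 25% higher and none was at least 20% lower, with a median log2 ratio of 0.19. At these limits 3.27% of all genes tested were higher and 4.71% lower, which serves all lists without depth weights. With depth weights these shares were not counted. The 3 others belong to the making and recycling of the tetrahydrobiopterin cofactor of TH: QDPR had a ratio of 1.14 (1.26 with depth weights, past the limit), PTS of 1.10 and PCBD1 of 1.06. Of 5 measured genes of catecholamine transport and breakdown, SLC18A2 and SLC6A2 were past the limit, both higher. SLC18A2, which loads monoamines into vesicles, stood at 44.7 CPM in DBH-high and 34.3 CPM in DBH-0 cells (ratio 1.31, 1.19 to 1.44). SLC6A2, the noradrenaline reuptake transporter, stood at 70.0 CPM in DBH-high and 55.0 CPM in DBH-0 cells (1.27, 1.18 to 1.37). The degrading enzyme MAOA had a ratio of 1.12, and 1.27 with depth weights, past the limit. Genes of these lists under 20 CPM were not counted as measured, and some differed more. Of the synthesis list, PNMT stood at 3.70 (1.24 to 14.9), GCH1 at 1.91 (1.23 to 3.05), SPR at 1.18 and GCHFR at 0.477. Of the transport and breakdown list, SLC18A1 stood at 1.99 (1.48 to 2.70), and the intervals of SLC6A3, SULT1A3 and MAOB included 1.

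CYB561, the vesicle membrane protein that hands on electrons to regenerate the ascorbate DBH uses, stood at 210 CPM in DBH-high and 119 CPM in DBH-0 cells. Its ratio was 1.77 (1.69 to 1.86), and 1.62 with depth weights. ATOX1, a copper chaperone, had a ratio of 1.04 (0.999 to 1.09). DBH-AS1, the antisense transcript at the locus, had only 5 UMIs in DBH-high and 3 UMIs in DBH-0 cells, too few to compare.

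Several genes of dense-core vesicle cargo were also higher in DBH-high cells. Of 5 measured granin and prohormone processing genes, 4 were past the limit on the higher side and none on the lower, with a median log2 ratio of 0.48. CHGA, chromogranin A, stood at 859 CPM in DBH-high and 513 CPM in DBH-0 cells (ratio 1.67, 1.64 to 1.71, and 1.77 with depth weights). PTPRN, a dense-core vesicle membrane protein, had a ratio of 1.73 (1.46 with depth weights), CHGB of 1.39 and SCG3 of 1.37, whereas SCG5 stood at 0.87 (1.04 with depth weights). Among members of this list under 20 CPM, VGF stood at 1.58 (1.22 to 2.06) and PCSK1N at 0.751 (0.632 to 0.893). CPE, SCG2 and PAM stood at 0.912, 0.928 and 0.990, with intervals that included 1. Both measured neuropeptide genes were higher. Of neuropeptide genes under 20 CPM, CARTPT stood at 4.68 (2.97 to 7.70) and NPY at 0.516 (0.403 to 0.658). GAL (galanin) stood at 793 CPM in DBH-high and 506 CPM in DBH-0 cells, a ratio of 1.57 (1.53 to 1.60), and SST (somatostatin) at 55.6 CPM in DBH-high and 37.9 CPM in DBH-0 cells, a ratio of 1.47 (1.34 to 1.60). Of 9 measured genes of vesicle exocytosis, 4 were past the limit on the higher side, CPLX2, RPH3A, CPLX1 and SYP, with ratios of 1.77, 1.49, 1.39 and 1.32. With depth weights CPLX2 stood at 1.45 and CPLX1 at 1.16, inside the limit. The calcium sensor SYT1 was lower at 0.774 (0.806 with depth weights, inside the limit), and the list's median was 0.31, or 0.21 with depth weights.

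IGF2 and DLK1 combined a ratio above 2 with a high level. IGF2 (ENSG00000167244), a secreted growth factor, stood at 646 CPM in DBH-high and 234 CPM in DBH-0 cells, a ratio of 2.75 (2.67 to 2.84) and 2.68 with depth weights. IGF2-AS, an antisense gene at the same locus, had a ratio of 1.86 (1.59 to 2.18). Whether all UMIs of either came from its own strand was not tested. DLK1 (ENSG00000185559), a membrane protein of the Notch ligand family known from chromaffin cells, stood at 1339 CPM in DBH-high and 551 CPM in DBH-0 cells (ratio 2.43, 2.38 to 2.48, and 2.37 with depth weights). The other named genes on the higher side were RAMP1, which escorts the CGRP receptor (2.49), the adhesion gene CNTNAP2 (1.91), the endoplasmic reticulum chaperone cofactor SDF2L1 (1.82), the serotonin-gated channel gene HTR3A (1.70), GDAP1L1 (1.69) and the neuronal intermediate filament gene INA (1.63). RAMP1 stood at 2.12 with depth weights.

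On the lower side IGFBP5 stood out. IGFBP5 (ENSG00000115461), which binds insulin-like growth factors such as the IGF2 product, stood at 14.5 CPM in DBH-high and 85.4 CPM in DBH-0 cells. It was 5.87-fold lower (5.26 to 6.57), and 4.61-fold with depth weights. VIM (ENSG00000026025), the mesenchymal intermediate filament gene, stood at 39.0 CPM in DBH-high and 111 CPM in DBH-0 cells and was 2.84-fold lower (2.63 to 3.05), or 2.19-fold with depth weights. CRABP1, which binds retinoic acid, stood at 71.3 CPM in DBH-high and 155 CPM in DBH-0 cells and was 2.17-fold lower, or 1.81-fold with depth weights. KCTD12, the syndecan gene SDC2 and LMO4 were 2.12-fold, 2.07-fold and 1.97-fold lower. MAGED2, the thymosin gene TMSB15A, the mitotic activator CDC20, the p53 target TP53I3, the kinesin KIF21A and the inhibitor of differentiation ID1 were 1.77-fold, 1.73-fold, 1.69-fold, 1.68-fold, 1.61-fold and 1.59-fold lower. MAGED2 and ID1 came to 1.44-fold and 1.37-fold with depth weights. The MAGED2 ratio was 0.969 (0.839 to 1.12) among cells with 15000 to 20000 UMIs. It was 0.729 under 15000 and 0.552 over 20000 UMIs.

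Genes under 50 CPM past 1.5-fold, picked after their values were seen, extended both sides. PLK2, a polo-like kinase, stood at 10.1 CPM in DBH-high and 32.1 CPM in DBH-0 cells and was 3.18-fold lower. AHNAK, a large scaffold protein, was 2.24-fold lower and CDC42EP3, an effector of CDC42, 2.05-fold lower. The secreted Wnt inhibitor DKK1 was 1.95-fold lower, the decoy receptor BAMBI 1.87-fold, PALMD 1.80-fold and the mesenchymal cadherin CDH11 1.69-fold. On the higher side the orphan nuclear receptor NR6A1 had a ratio of 1.99, the thyroglobulin gene TG of 1.84, the adhesion molecule ALCAM of 1.81, the histamine receptor HRH3 of 1.64 (1.41 with depth weights) and the potassium channel KCNK3 of 1.53 (1.44 with depth weights). GAGE2A had 1.90, but its family holds near-identical copies among which reads could be split.

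**Figure D2:**
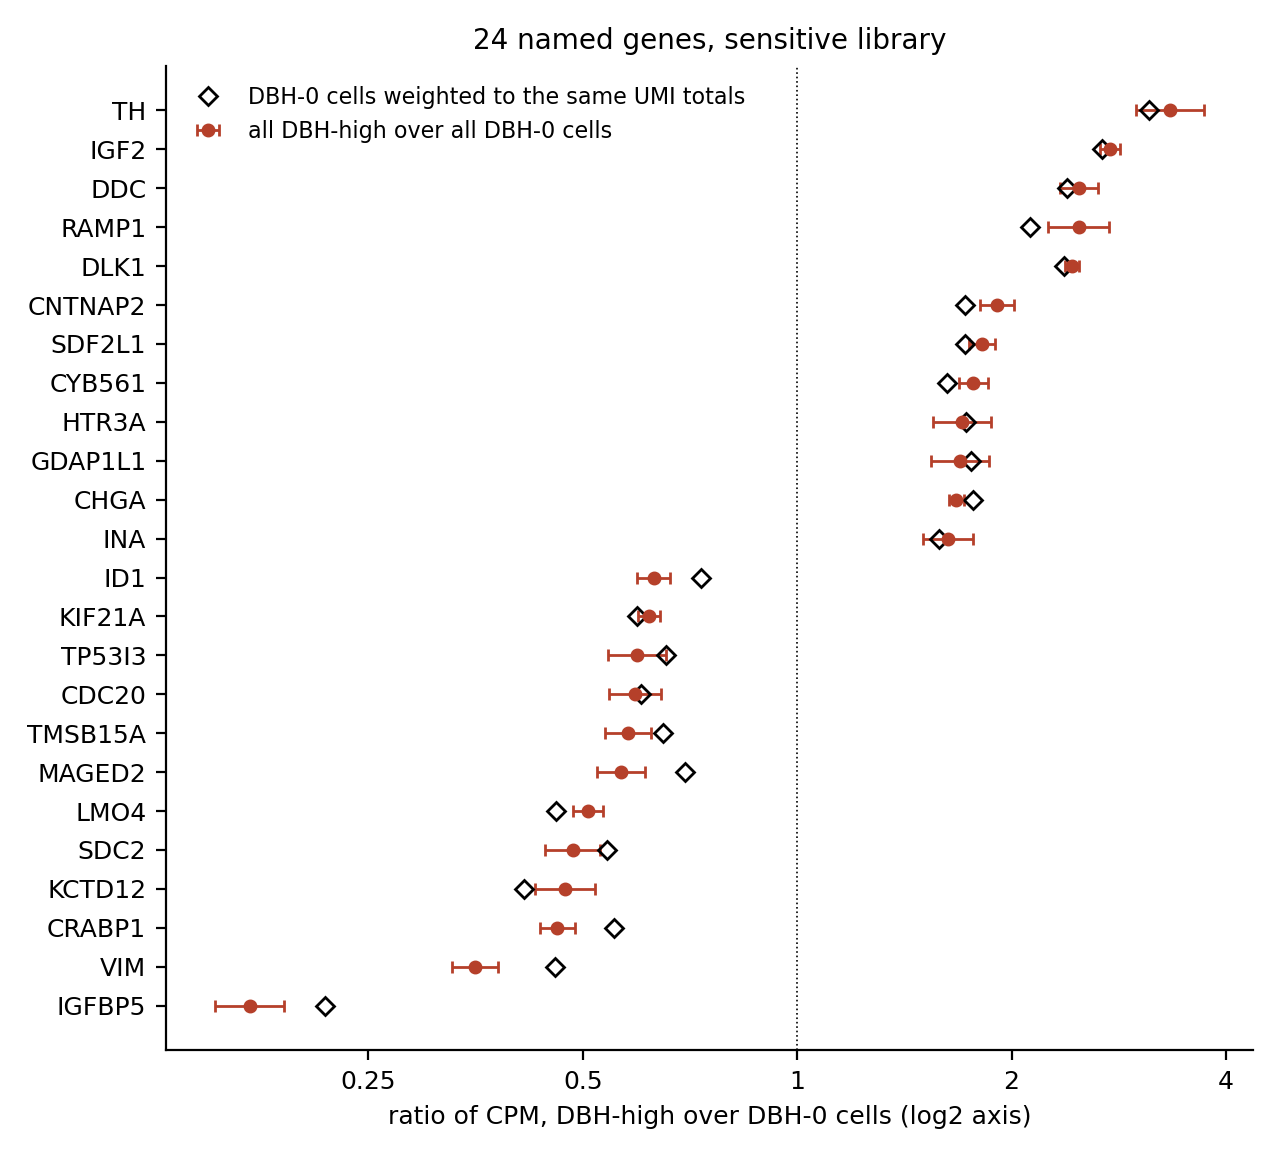
Ratio of CPM in DBH-high over DBH-0 cells (x axis, log2 scale) for the 12 highest and 12 lowest genes among those with at least 50 CPM. Points with bars give the ratio and its exact Poisson 95% interval, and open diamonds the depth-weighted ratio; TH stands highest at 3.33 and IGFBP5 lowest at 0.170, and every gene keeps its side with depth weights.

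Some of the same genes also differed within the DBH-high cells. With 0, 1, 2, 3 to 4, 5 to 9 and 10 or more DBH UMIs, TH stood at 20.2, 35.1, 43.6, 53.2, 64.4 and 78.1 CPM, a higher level at each step. DDC stood at 67.4, 96.9, 111, 129, 160 and 192 CPM in the same order, and IGF2 at 234, 352, 455, 488, 610 and 766 CPM. DLK1 stood at 551, 836, 1083, 1171, 1323 and 1392 CPM, with its widest steps below the limit of 5. CHGA, at 513, 636, 731, 767, 864 and 841 CPM, was level within the DBH-high cells. IGFBP5 went the other way, at 85.4, 38.9, 24.6, 21.3, 15.5 and 11.3 CPM, and VIM stood at 111, 70.4, 44.3, 43.0, 39.9 and 36.0 CPM. For IGFBP5 and VIM most of the difference lay between cells with 0 and cells with 2 DBH UMIs. The classes differ in depth too, with medians of 14640 UMIs in the first and 28783 UMIs in the last. Just inside and just outside the limit, the 320 cells with exactly 5 and the 390 cells with exactly 4 DBH UMIs had TH at 57.8 and 56.9 CPM, DDC at 150.0 and 137 CPM, and VIM at 40.7 and 40.4 CPM. These levels lay close together on both sides of the limit.

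**Figure D3:**
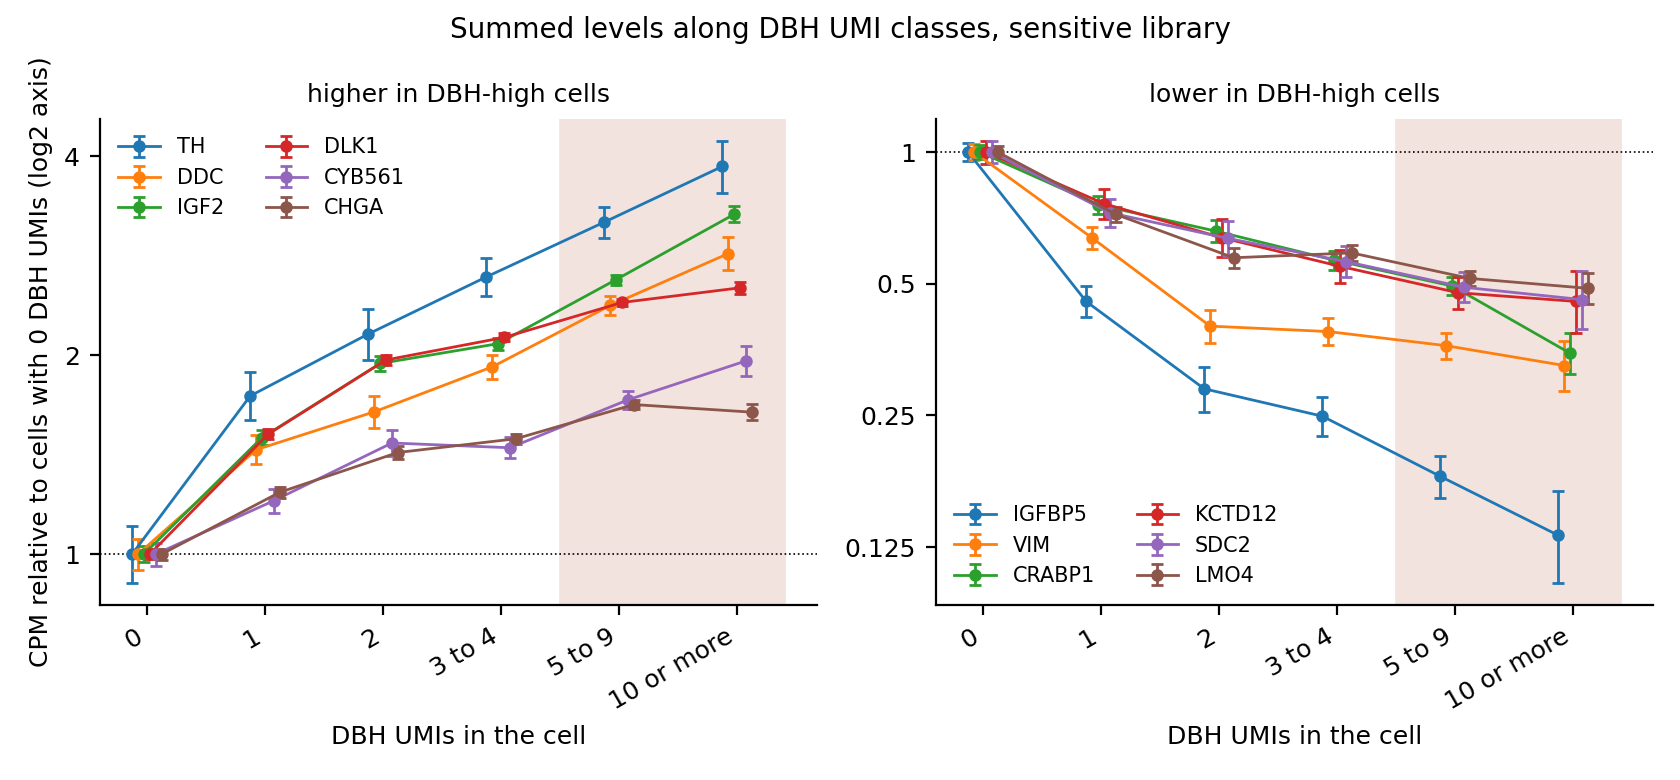
Summed level in each class of DBH UMIs relative to the cells with 0 (y axis, log2 scale, bars are exact Poisson 95% intervals of each class's level), for 6 genes higher (left) and 6 lower (right) in the shaded DBH-high classes. TH runs up to 78.1 CPM against 20.2 CPM in cells with 0 DBH UMIs, and IGFBP5 down to 11.3 CPM against 85.4 CPM.

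DBH-high cells lay partly together but formed no cluster of their own. In principal components made without DBH on thinned counts, 40.8% of the 15 nearest cells of a DBH-high cell were themselves DBH-high, against 10.1% around DBH-0 cells and 23.9% overall. All 10 clusters held members. Cluster 5, whose leading genes included HIST1H4C, IGF2 and FOXM1 and whose cells were deepest at a median of 28122 UMIs, had 55.0% members and held 22.9% of them. On thinned counts the share in cluster 5 was 7.77%, near the 6.24% over all cells. Of the clusters led by mitotic genes, 7 and 8 (CCNB1, CENPE and CDC20) had 12.4% and 11.6% members, and cluster 6 (AURKA, CENPA and PLK1), at a median of 21577 UMIs, had 21.4%. Cluster 2, led by VIM, had 24.5% members as counted and 11.1% on thinned counts, the highest thinned share of the 10 clusters. It also held 30.5% DBH-0 cells as counted, beside 25.7% of all sensitive cells.

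Most transcription factors of the adrenergic identity stayed inside the list limits. PHOX2A, a homeodomain activator of DBH and TH, stood at 342 CPM in DBH-high and 350.0 CPM in DBH-0 cells, a ratio of 0.978 (0.948 to 1.01), or 1.09 with depth weights. HAND2 had a ratio of 1.09, and GATA3 stood at 0.847. Of 17 measured adrenergic core factors, INSM2 (1.33) and TFAP2B (1.32) were past the limit on the higher side, TBX2 (0.756) and ISL1 (0.760) on the lower, and the median log2 ratio was -0.12. Of 8 proneural and progenitor factors, none was higher and ID1 and SOX4 were lower, with a median of -0.25. MYCN, the amplified oncogene, stood at 1337 CPM in DBH-high and 1074 CPM in DBH-0 cells (1.24, 1.22 to 1.27). With depth weights its ratio was 1.33, past the limit. MYCNOS, which overlaps MYCN on the other strand, had a ratio of 1.32. Reads of MYCN and MYCNOS may not be fully told apart. ALK, the target of TAE684, was near the limit of detection at 5.24 CPM in DBH-high and 5.04 CPM in DBH-0 cells (1.04, 0.801 to 1.36). None of 11 measured genes of the cAMP and protein kinase A list and none of 7 immediate early genes passed the limit in either direction. With depth weights the immediate early gene IER2 stood at 1.38 instead of 0.999, past the limit. RGS5, an abundant regulator of G protein signalling, stood at 3090 CPM in DBH-high and 2809 CPM in DBH-0 cells (1.10, 1.09 to 1.11).

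Secretory pathway genes included several on the higher side. Of 30 measured chaperone and secretory pathway genes of the endoplasmic reticulum, 5 were past the limit on the higher and 1 on the lower side, with a median of 0.05. The 5 were SDF2L1 (1.82), the chaperone HSPA5 (1.51), DNAJC3 (1.43), CRELD2 (1.37) and the stress transcription factor XBP1 (1.28), and SSR2 was at 0.797 (0.892 with depth weights, inside the limit). With depth weights 9 of the 30 passed, a count for which no share of all genes was computed. The ATF4 amino acid list gave no such lean, with 1 of 12 higher and 3 lower, or 1 higher and 0 lower with depth weights. Glycolysis (0 of 15 past the limit), cholesterol synthesis (0 of 12) and the nuclear respiratory chain (0 of 48) had medians of -0.14, 0.03 and -0.07. With depth weights HMGCS1 of the cholesterol list stood at 1.28 instead of 1.11, past the limit.

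Some genes of mitosis were lower in DBH-high cells. Of 45 measured G2 and M phase genes, 13 were at least 20% lower and none was at least 25% higher, and the median was -0.23. With depth weights 31 were at least 20% lower and the median was -0.42, beside -0.02 over all genes tested with the same weights. The share of all genes past this limit was not counted with depth weights. CDC20, DLGAP5 and CCNB1 had ratios of 0.592, 0.641 and 0.684. Of 33 S phase genes, DTL was higher at 1.28 and none lower, and of 8 genes of G1 control CDK6 (1.42) and CCNE1 (1.26) were higher. With depth weights DTL stood at 1.16 and CCNE1 at 1.21, both inside the limit, and CDK6 at 1.32. A further set was the 176 DBH-high and 237 DBH-0 cells with no UMI of the cycling genes MKI67, TOP2A, CDK1 and UBE2C on thinned counts. On full counts, the TH ratio in this set was 4.74 and the ratio of CDC20 was 1.16. TH was thus higher in DBH-high cells within this set too, whereas CDC20 was not lower.

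Some genes of mesenchymal character and matrix were lower. Of 9 measured mesenchymal-state genes, VIM, SPARC (0.715) and LGALS1 (0.797, but 0.880 with depth weights) were past the limit on the lower side and none on the higher. Of 7 extracellular matrix genes, MMP2 (0.693), SPARC and COL4A2 (0.761) were lower. With depth weights TIMP2 also passed the limit, at 0.781 instead of 0.859. B2M, a gene of antigen presentation, stood at 0.726, and at 0.849 with depth weights, inside the limit. On thinned counts VIM was detected in 24.9% of DBH-high and 42.8% of DBH-0 cells. Of 18 glutathione and peroxide genes, PRDX1, GSTM3 and PRDX2 were lower at 0.732, 0.780 and 0.794, and with depth weights stood inside the limit at 0.899, 0.890 and 0.877. GCLM stood at 0.973, but at 0.770 with depth weights, past the limit.

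**Figure D4:**
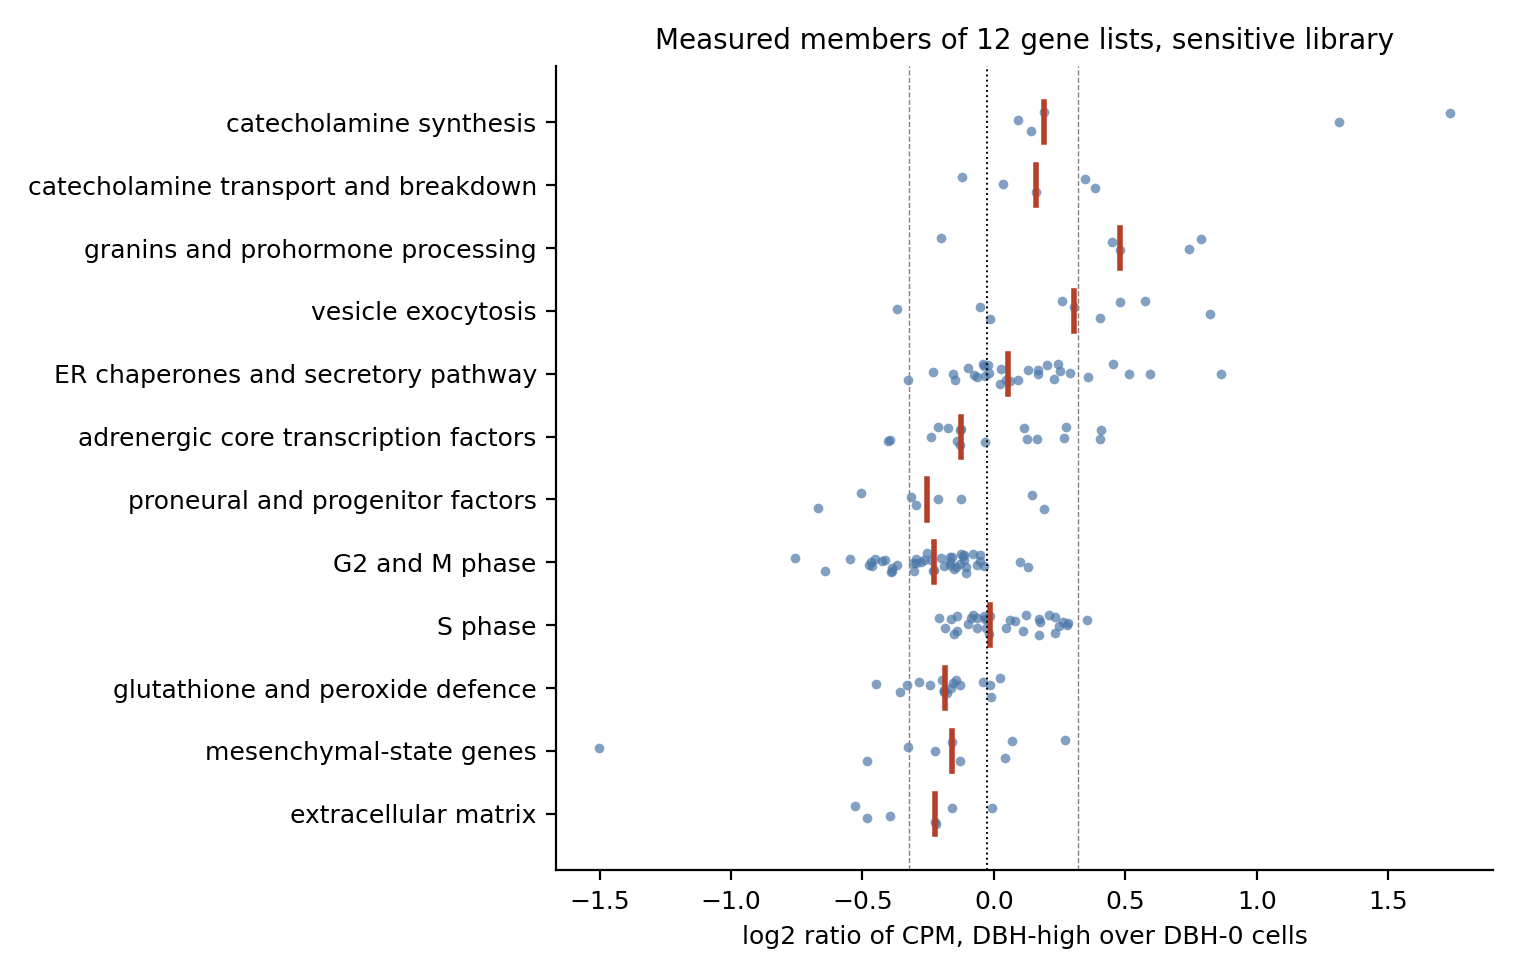
Log2 ratio of CPM in DBH-high over DBH-0 cells (x axis) for each measured member (points) of 12 gene lists (rows), with the list's median as a red bar. The dotted line is the median of all genes tested (-0.02), the dashed lines mark the limits of 25% higher and 20% lower, and TH and DDC are the points farthest to the right.

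Marker lists of cell types, also chosen with earlier results of these data known, were read beside the label. Of 11 measured chromaffin markers other than DBH, 6 were at least 25% higher and none at least 20% lower, and the 17 markers summed to 4067 CPM in DBH-high and 2807 CPM in DBH-0 cells. Those 6, TH, DDC, DLK1, CHGA, CHGB and SLC18A2, also stand in other lists above. Of 12 measured markers of sympathoblasts and sympathetic neurons, TH and SLC6A2 were higher, STMN2, ISL1 and ELAVL4 were lower (STMN2 at 0.760, but 0.915 with depth weights), and the 15 summed to 1941 CPM in DBH-high and 1994 CPM in DBH-0 cells. The 10 Schwann cell precursor markers summed to 4.10 CPM in DBH-high and 4.94 CPM in DBH-0 cells, with SOX10, CDH19, FABP7 and MAL at 0 in both groups. The 10 immune markers summed to 2.80 CPM in DBH-high and 2.99 CPM in DBH-0 cells with CD3D, CD3E, MS4A1 and NKG7 at 0. The 7 erythroid markers, with ALAS2, HBA1, HBA2 and HBG1 among those at 0, summed to 0.258 CPM in DBH-high and 0.299 CPM in DBH-0 cells. The 8 adrenal cortex markers, of which CYP11A1, CYP21A2, HSD3B2, MC2R and NR5A1 were at 0, summed to 82.0 CPM in DBH-high and 80.1 CPM in DBH-0 cells, nearly all of it from FDX1. The 6 endothelial markers summed to 33.1 CPM in DBH-high and 29.5 CPM in DBH-0 cells, nearly all of it from EGFL7. The 12 mesenchymal and fibroblast markers summed to 133 CPM in DBH-high and 201 CPM in DBH-0 cells, mostly VIM and TWIST1, with COL1A2 and DCN at 0.

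The same limits were then applied within the resistant libraries, which had no part in choosing the cells. There were 4582 cells with at least 5 and 99 with 0 DBH UMIs in the intermediate resistant library. The fully resistant library had 2941 and 1064 such cells. Of the 43 genes higher in sensitive DBH-high cells, 29 were measured in both the sensitive and the intermediate resistant library, and 13 of these were at least 25% higher there too, against 6.12% of all genes measured in both. In the fully resistant library it was 13 of 25, against 2.97%. Of the 30 lower genes, 9 of 19 were at least 20% lower in the intermediate resistant library, against 12.3%, and 11 of 15 in the fully resistant library, against 9.57%. Among genes with at least 20 CPM in the higher group of every library, TH, IGF2, DDC, DLK1, IGF2-AS, SDF2L1 and HSPA5 were higher in all 3. CDC20, ID1 and TUBB2A (0.830 with depth weights in the sensitive library) were lower in all 3. With depth weights CDC20 (0.843) and TUBB2A (0.953) stood inside the limit in the intermediate resistant library, and ID1 stood at 0.572. Genes such as VIM, KCTD12 and CYB561 fell under that minimum in a resistant library.

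TH and its companions showed a far wider contrast in the fully resistant library. TH stood at 323 CPM in cells with at least 5 DBH UMIs and 101 CPM in cells with 0 in the intermediate resistant library (ratio 3.21). For the same classes it stood at 397 and 13.7 CPM in the fully resistant one (28.9, 25.4 to 33.1). In intermediate resistant cells with at least 5 and with 0 DBH UMIs IGF2 stood at 1328 and 513 CPM (2.59). In fully resistant cells it stood at 860 and 54.6 CPM for the same classes (15.8). DLK1 had ratios of 1.82 and 8.38 in the intermediate and the fully resistant library, and DDC of 2.56 and 3.62 in the same order, which holds for the pairs that follow. TFAP2B, which was 1.32 in the sensitive library, had 1.53 and 10.6. PHOX2A, near 1 in sensitive cells, had 1.05 and 1.83. The median log2 ratio over all genes tested was -0.07 and -0.11 in these libraries. VIM kept its side, with ratios of 0.485 (0.267 to 0.982) and 0.323 (0.256 to 0.406), at under 10 CPM in both. In the intermediate resistant library VIM had only 11 UMIs in cells with 0 DBH UMIs, and its ratio was 0.901 with depth weights. IGFBP5 did not keep its side: it stood at 0.830 (0.433 to 1.83) and 1.65 (1.20 to 2.31), at under 7 CPM. CHGA, at 1.33 and 1.09, was closer to 1 than in sensitive cells. Differences between libraries in these ratios were not tested.

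**Figure D5:**
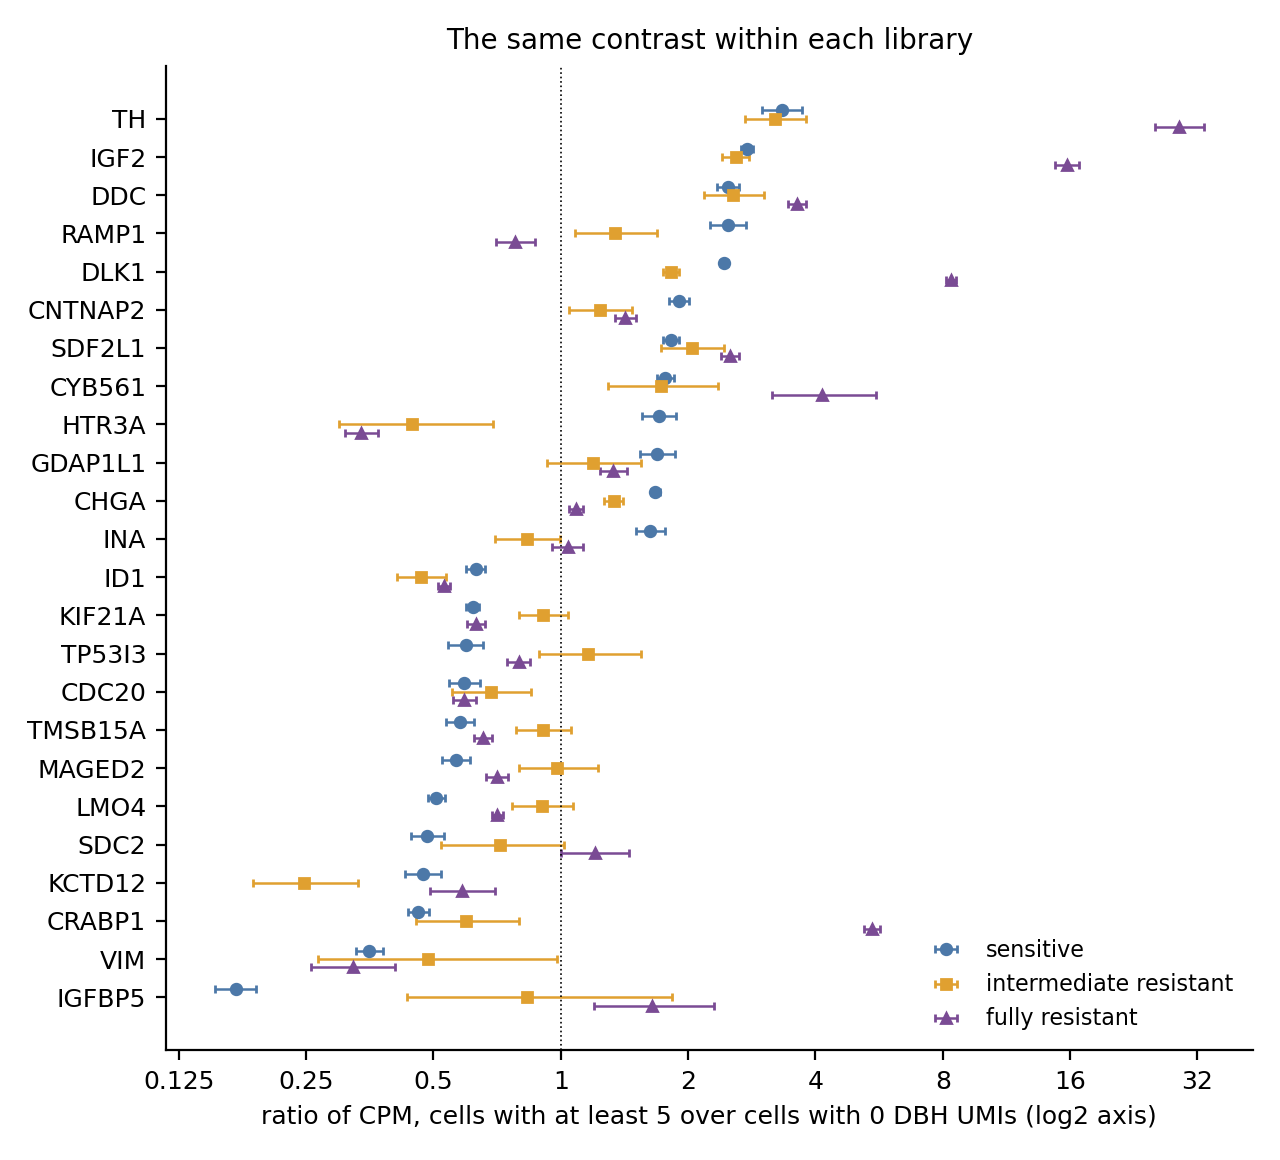
Ratio of CPM in cells with at least 5 over cells with 0 DBH UMIs (x axis, log2 scale, bars are exact Poisson 95% intervals) for the 24 named genes within the sensitive, intermediate resistant and fully resistant library. TH, at 3.33, 3.21 and 28.9, lies to the right of 1 in each, and CRABP1 lies at 0.461, 0.597 and 5.45.

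The library behind these values held 100379755 UMIs, of which 91.2% lay in the 4907 cells. DBH-high cells contributed 27108917 UMIs and DBH-0 cells 20057271. The mitochondrial limit removed 0 sensitive barcodes. Between 36 and 53 cell barcodes were shared by each pair of libraries.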

How the data were processed

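Droplet single-cell RNA was profiled in 3 libraries of Kelly cells, 1 per TAE684 response. The authors deposited UMI count matrices, not normalized and with all 737280 barcodes; per the submitters' processing notes bcl2fastq and Cell Ranger were used on hg19, without versions, and the labels name the 10x Genomics v2 chemistry. All else was computed from these counts. UMIs were summed over cells and divided by the totals without DBH (CPM). Intervals are exact Poisson, exact conditional Poisson or Clopper-Pearson at 95%, and cover counting error only. No test was run. A gene was tested at 20 CPM in the higher group and called at 1.5-fold, and list members at 25% higher or 20% lower. A gene at 0 UMIs was given a floor of 3 UMIs. Clusters used 1500 variable genes, 20 components and Leiden at a resolution of 1. Doublets were kept and no doublet caller was run. No row lacked a gene name and 0 sample columns were left unused.

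Genes were named as the 12 highest and 12 lowest ratios at 50 CPM or more, without DBH, mitochondrially encoded, ribosomal protein and clone-named transcripts, up to 4 measured members per described list, and a fixed set (among them TH, DDC, PHOX2A, HAND2, GATA3, SLC18A2, SLC6A2, CHGA, CHGB, ALK, MYCN, RGS5, VIM, DBH-AS1). PCBD1, SCG5, SYT1, XBP1, SSR2, IGF2-AS, IER2, TIMP2 and GCLM are named in addition, after their values were seen. So are list genes under 20 CPM, genes leading a cluster and those exceeding DBH in variance. The members and the 43 lists were chosen with earlier results of these data known. Of the list symbols, 7 are not analysed here. Some genes are not reported here. The scripts were tested on simulated data. Software was Python 3.11.15, numpy 2.4.6, scipy 1.17.1, scikit-learn 1.9.0, leidenalg 0.10.2, R 4.3.3 and edgeR 4.0.16, the last for scaling factors only.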

Additional observations from a re-analysis of the deposited data

Results flagged for a closer look

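Given here are named genes at least 25% higher in the sensitive and at least 20% lower in a resistant library, or the reverse. The ratio is that of cells with at least 5 over cells with 0 DBH UMIs. The rule also asked for 20 CPM in the higher group and an interval without 1 in both libraries. IGFBP5 (0.170 in the sensitive, 1.65 in the fully resistant library) and RPH3A (1.49 in the sensitive, 0.378 in the intermediate resistant library) fell under that minimum. None of these differences was tested, and each library is a single culture. RAMP1 had a ratio of 2.49 in the sensitive and 0.779 in the fully resistant library. HTR3A had 1.70 and 0.338 in the same pair. CRABP1 had 0.461 in the sensitive and 5.45 in the fully resistant library, where it stood at 698 CPM in DBH-high and 128 CPM in DBH-0 cells. CPLX2 had 1.77 and 0.384. In the intermediate resistant library SST had a ratio of 0.528, against 1.47 in the sensitive library, and STMN2 had 1.37 against 0.760.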

How the results depend on the processing

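No paired analysis was possible because each group has 1 library and the labels give no shared replicate numbers. The count of genes at least 1.5-fold higher (43) became 69 with members of at least 8 DBH UMIs, 27 with a reference of 0 or 1 DBH UMIs, 102 with totals without mitochondrially encoded and ribosomal protein genes (beside 43 lower, so that 70.3% of the calls were higher instead of 58.9%), 83 at a minimum of 10 CPM, 1233 with no minimum and 92 in cells without UMIs of the 4 cycling genes. The count at least 1.5-fold lower (30) became 48 with depth weights, 61 with groups chosen on thinned counts, 58 at 8 DBH UMIs, 61 at 10 CPM, 1502 with no minimum, 95 without cycling genes and 74 with members of at least 3 DBH UMIs per 10000, a limit chosen after seeing the data. The share of calls that were higher was 42.9% with depth weights, 37.1% with groups chosen on thinned counts and 45.1% with no minimum. The TH ratio (3.33) was 3.78 on thinned counts, 2.92 with groups chosen on them, 2.52 with a reference of 0 or 1, 4.74 without cycling genes, 4.10 at 3 DBH UMIs per 10000, and 4.65, 4.22 and 2.68 in the 3 depth classes, also chosen after seeing the data. DBH-high cells were 1.70 times as frequent among the 15 neighbours of their kind as in the library, 1.61 times among 50 neighbours and 1.91 times on thinned membership. In cells without cycling genes CDC20 (1.16) and the medians of the G2 and M phase (0.060) and heat shock (0.015) lists changed side. These cells were chosen on thinned counts by genes of the first kind. Over the named genes and alternatives 331 values moved by less than their interval and 178 by more, and CDC20 was the 1 value past the list limit that changed side. Genes near 1 crossed it too: with depth weights PHOX2A stood at 1.09 instead of 0.978 and ALK at 0.990 instead of 1.04. Depth limits genes under 20 CPM and any cell's own DBH class, 1 library per state limits every comparison, and free RNA and doublets were not removed.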

Other observations

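Neighbours of the leading genes on their chromosomes were read for levels as well, and were chosen after values were seen. Of 11 measured genes around DBH on chromosome 9, none was at least 25% higher or at least 20% lower, from WDR5 at 1.14 to BRD3 at 0.886. OLFM1, a secreted neuronal glycoprotein gene 8 places away and outside that list, stood at 73.5 CPM in DBH-high and 49.4 CPM in DBH-0 cells (1.49, 1.38 to 1.61). FAM163B, next to DBH, had 13 UMIs in DBH-high and 1 UMI in DBH-0 cells, a ratio of 9.62 with a counting interval of 1.45 to 409. Around DLK1 on chromosome 14, the maternally expressed RNA gene MEG3 had 48 UMIs in DBH-high and 11 UMIs in DBH-0 cells (3.23, 1.65 to 6.90) and BEGAIN 149 UMIs in DBH-high and 60 UMIs in DBH-0 cells (1.84, 1.35 to 2.52), whereas EVL stood at 1.06 and YY1 at 0.891. MEG3 and DLK1 belong to one imprinted domain, and so do IGF2 and its antisense gene. Around TH on chromosome 11, beyond IGF2 and IGF2-AS, CD81 stood at 1.12, MRPL23 at 0.980 and KCNQ1OT1 at 0.908. Whole chromosomes differed by little, from 0.930 for chromosome 12 to 1.04 for chromosomes 14 and 22.

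Among the BCL2 family, BOK stood at 24.1 CPM in DBH-high and 13.0 CPM in DBH-0 cells (1.85, 1.60 to 2.15, and 2.05 with depth weights), the 1 member of 9 measured that was at least 25% higher. BNIP3L stood on the lower limit at 0.800, and at 1.05 with depth weights. ETV5, a transcription factor downstream of ERK, had a ratio of 1.44 (1.26 to 1.65). STRA6, the retinol uptake receptor, was higher at 1.57 (1.45 with depth weights), whereas the retinoid-binding gene CRABP1 stood at 0.461. All 13 mitochondrially encoded messenger RNAs stayed within these limits, with a median log2 ratio of 0.12.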
